A study of Mus musculus with 12 samples.

Results

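Mouse 8-cell embryos in which Nr5a2 and Klf5 were knocked down together (Nr5a2 Klf5 dKD, n = 4 libraries) were compared with embryos that had received a non-targeting control siRNA (control, n = 2 libraries), and the comparison covered all genes. The 6 libraries were taken by their labels from the 12 of the series, and the others were Nr5a2 KD (n = 3) and Klf5 KD (n = 3). Zygotes came from B6129F1 females of 3 to 5 weeks mated with B6CBAF1 males and were injected at 8 to 9 h after fertilization. Every group also received H2B-EGFP mRNA at 150 ng/µl as a marker of injection. The control siRNA was given at 15 µM and the single knockdowns at 5 µM for Nr5a2 and 10 µM for Klf5, while the concentrations combined in the dKD are not given separately in the sources used here. Each library was a pool of 10 embryos, so a value is an average over embryos and blastomeres, and the mix of male and female embryos in a pool is not given. An siRNA lowers a transcript without removing the gene, and only transcripts were measured here.

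NR5A2 is an orphan nuclear receptor that binds DNA as a monomer and takes part in the start of transcription from the embryo's own genome. KLF5 is a zinc finger factor of the Krüppel-like family, which binds GC-rich sequences and acts in both the inner cell mass and the trophectoderm. At the 8-cell stage the blastomeres flatten against each other and polarize, shortly before outer cells become trophectoderm and inner cells become inner cell mass.

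Gene counts per library ran from 6676683 to 7959092. The mitochondrial share of the gene counts was 13.2 and 12.9% in control, 12.8 and 12.6% in dKD replicates 1 and 2, and 6.75 and 6.17% in dKD replicates 3 and 4. The dKD libraries thus fell into a pair near control and a pair far below it. In the rest of the series the share also varied, at 10.4, 12.5 and 6.18% in Nr5a2 KD and 4.41, 8.28 and 11.8% in Klf5 KD. Gene counts per count of ERCC spike-in RNA, which was added at lysis, were 250.5 and 217 in control and 327, 284, 404 and 448 in dKD, with no overlap (exact two-sided permutation p = 0.133, with 0.0667 the smallest p that 2 against 4 libraries allow). The ERCC share of counts, the same measure inverted, gave that smallest p. The sum of 10 Y-linked genes was 48.1 and 36.8 CPM in control and 93.1, 109, 131 and 93.4 CPM in dKD, with no overlap (exact p = 0.0667). CPM is a gene's count relative to the size of its library, scaled with TMM factors over the 12 libraries. Sums of markers of cumulus cells (exact p = 0.6), of blood and oviduct cells (p = 0.867) and of sperm (p = 0.133) lay in ranges of 9.78 to 18.2, 21.4 to 39.3 and 7.06 to 8.73 CPM over the 6 libraries. The globin genes Hbb-bs and Hbb-bt had no count in any of the 6 libraries, and the cumulus cell markers Amh and Fshr had none in dKD. On the blood and oviduct list, Hba-a1 rose and Pecam1 fell against control, of 4 tested, as given below.

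**Figure D1:**
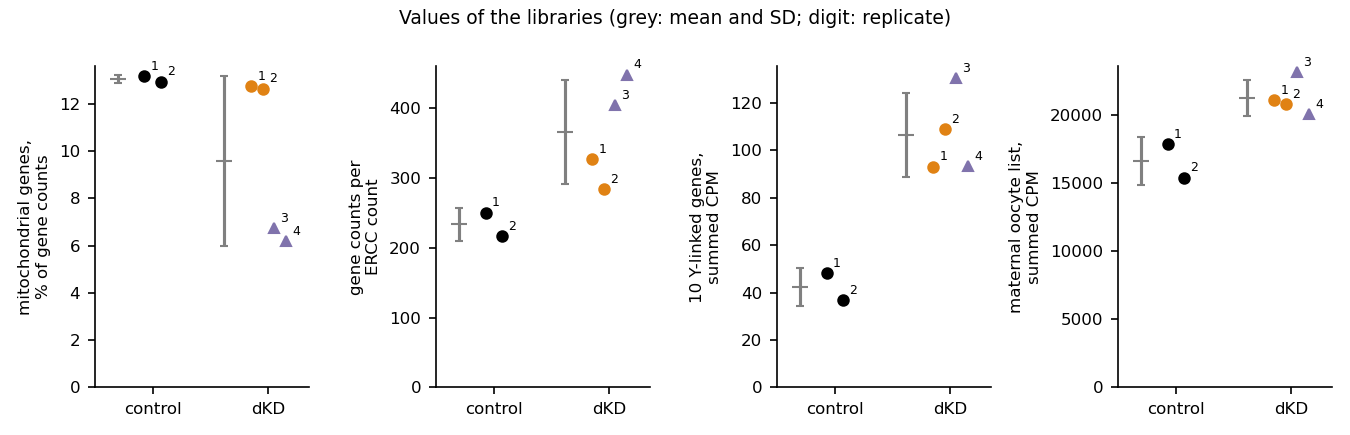
The 4 panels plot, for each library, the mitochondrial percentage of gene counts, the gene counts per ERCC count, the summed CPM of 10 Y-linked genes and the summed CPM of the maternal oocyte list. Digits mark the replicate and grey bars the mean and SD of 2 control and 4 dKD libraries. In dKD replicates 3 and 4 the mitochondrial share lies at 6.75 and 6.17%, while dKD replicates 1 and 2 lie beside control, and in the Y-linked and maternal panels every dKD library lies above both control libraries.

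Both targeted transcripts were low in every dKD library. Nr5a2 (chr1:136842571-136960448, GRCm38) was at 225 and 209.7 CPM in control and 28.5, 31.1, 33.8 and 25.2 CPM in dKD, or 13.7% of the control mean (log2 fold change -2.83 ± 0.20, adjusted p = 0.000198). Klf5 was at 443 and 466 CPM in control and 82.0, 59.8, 42.2 and 39.9 CPM in dKD, or 12.3% of the control mean (log2 fold change -2.99 ± 0.27, adjusted p = 0.000602). Here and below, fold changes are given ± SE, and p values are from edgeR's quasi-likelihood test with Benjamini-Hochberg adjustment over all genes tested. The injected H2B-EGFP was found in all 6 libraries, at 3.78 and 5.22 CPM in control and 4.92, 10.9, 5.89 and 8.25 CPM in dKD (exact p = 0.2).

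Across the transcriptome, 529 genes fell and 464 rose, out of 13724 tested. Calls needed an adjusted p below 0.05 together with a change of at least 2-fold, which gave 3.85% of the tested genes lower and 3.38% higher. The counts per gene list below stand against these shares, and no list was tested as a set. The median log2 fold change was -1.72 among genes that fell and 1.94 among genes that rose, against 0.05 among all genes tested. Genes that fell had a median of 28.6 CPM in control, and genes that rose had a median of 4.39 CPM in control and 16.3 CPM in dKD. Of the genes that rose, 45 had no count in either control library, and 6 of those that fell had no count in any dKD library. Since the pairs of dKD libraries were noticed by their mitochondrial share, values were also taken without each pair. Without dKD replicates 3 and 4, 416 genes fell (3.24% of 12824) and 289 rose (2.25%), and without dKD replicates 1 and 2, 1259 fell (9.77% of 12888) and 1141 rose (8.85%). The counts depended on each control library, since 91 genes fell and 41 rose without control replicate 1, and 104 fell and 66 rose without control replicate 2. With total counts as library sizes, 418 genes fell and 650 rose. With library sizes set by the ERCC counts, 178 genes fell and 2838 rose, and the median over all genes moved to 0.84 on the log2 scale. Levels below are therefore relative to the other genes of a library, and in pools of embryos fewer cells of a type and less RNA per cell cannot be told apart.

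**Figure D2:**
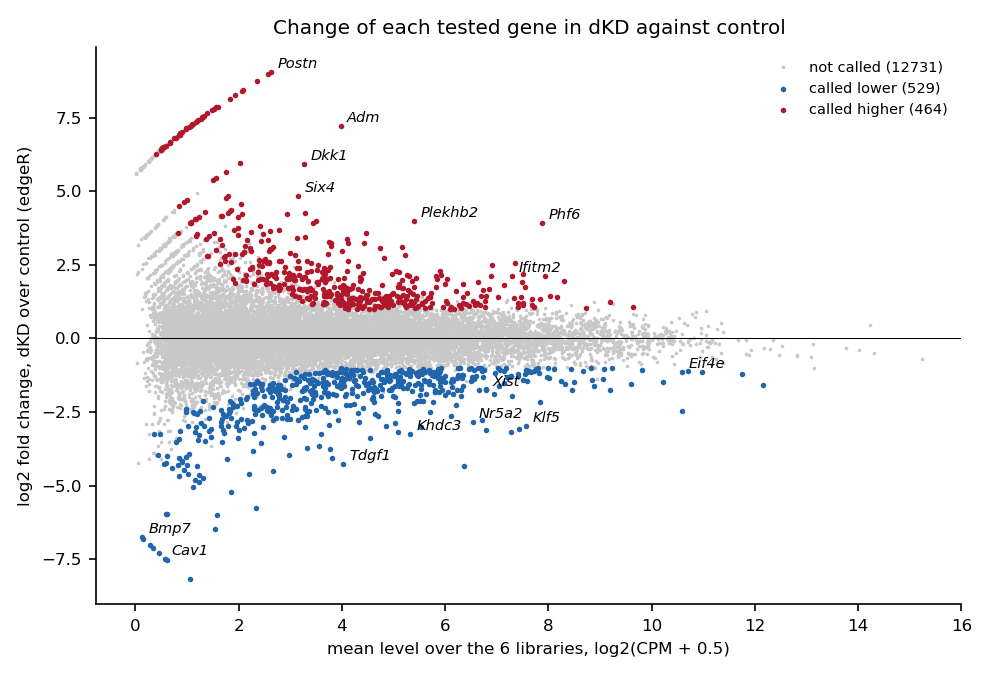
Each point is a tested gene, placed by its mean level over the 6 libraries, as log2(CPM + 0.5), and its log2 fold change in dKD over control from edgeR. Blue marks 529 genes called lower, red 464 called higher and grey those not called, and the curved lines of red points at the upper left are genes with no or few counts in control.

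A rule named the 12 called genes of largest change in each direction, at 10 CPM or more and without overlap between the groups. Of those that fell, Tdgf1, which encodes the Nodal co-receptor Cripto, fell from 32.5 and 53.4 CPM in control to 5.42, 0.990, 0.471 and 1.77 CPM in dKD (log2 fold change -4.27 ± 0.59, adjusted p = 0.00265). Irak3, an inhibitor of interleukin-1 and Toll-like receptor signaling, was at 8.92 and 13.8 CPM in control and 0.820, 0.636, 0.295 and 0.294 CPM in dKD (log2 fold change -4.60 ± 0.53, adjusted p = 0.00125). Cdc42ep5, an effector of the small GTPase CDC42, was at 19.6 and 19.5 CPM in control and 1.13, 2.12, 0.589 and 1.06 CPM in dKD (log2 fold change -3.97 ± 0.42, adjusted p = 0.000799). The lower control library was 6.00-fold above the highest dKD library for Tdgf1, 10.9-fold for Irak3 and 9.21-fold for Cdc42ep5. Creg1 (-3.76), Ube2u (-3.71), Inka1 (-3.67), Ccdc160 (-3.82), Rhox9 (-3.57), Tex264 (-3.35) and Mybpc2 (-4.50) also fell, as log2 fold changes, and the reads of Mybpc2 may be shared with the overlapping Gm44646, which fell too.

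Among the genes that rose most, Phf6, whose PHD finger protein acts in chromatin, was at 22.7 and 23.6 CPM in control and 152, 208, 455 and 549 CPM in dKD (log2 fold change 3.93 ± 0.54, adjusted p = 0.00257). Plekhb2, a pleckstrin homology domain protein, was at 2.42 and 5.35 CPM in control and 48.8, 51.9, 71.1 and 71.5 CPM in dKD (log2 fold change 3.99 ± 0.38, adjusted p = 0.000602). Six4, a homeobox factor, was at 0.454 and 0.402 CPM in control and 10.5, 13.9, 11.55 and 13.7 CPM in dKD (log2 fold change 4.85 ± 0.47, adjusted p = 0.000602). The lowest dKD library was 9.11-fold above the higher control library for Plekhb2 and 23.1-fold above it for Six4. Gdpd1 (3.57), Pxt1 (3.41), Pnma5 (3.26), Lpar6 (3.44), Id2 (3.93), Rdh12 (3.98) and Stat6 (4.27) rose as well, as log2 fold changes. Adm, the gene of the peptide hormone adrenomedullin, had 2 counts over both control libraries and was at 4.04, 14.3, 37.2 and 35.7 CPM in dKD, a ratio of 166 (95% interval 45.7 to 1370.0) from counting error alone. Its level was higher in dKD replicates 3 and 4 than in replicates 1 and 2.

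**Figure D3:**
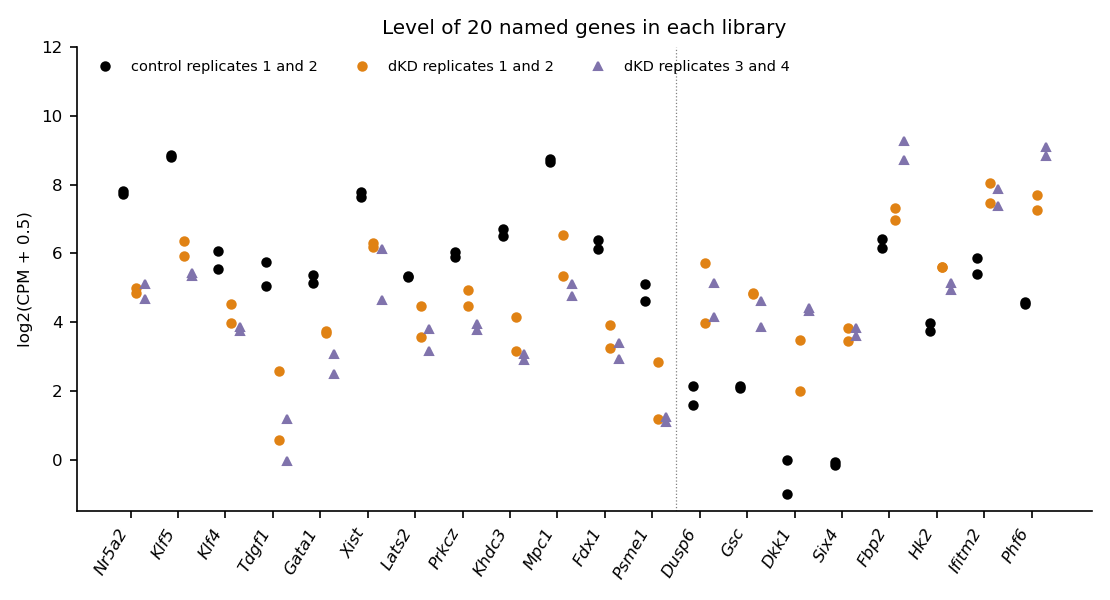
The level of 20 named genes in each library is plotted as log2(CPM + 0.5), with black points for control replicates 1 and 2, orange points for dKD replicates 1 and 2 and purple triangles for dKD replicates 3 and 4. The 12 genes left of the dotted line fell and the 8 to its right rose. In none of the 20 do dKD and control points overlap, which held for all 529 genes called lower and all 464 called higher.

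In the Klf family 4 of 13 tested genes fell (30.8%), the targeted Klf5 among them, against 3.85% of all genes. No member of the family rose. Its median log2 fold change lay -0.92 from that of all genes. Besides Klf5 itself these were Klf4, a factor of the pluripotent state, at 46.6 and 66.0 CPM in control and 22.6, 15.3, 14.02 and 13.0 CPM in dKD (log2 fold change -1.76 ± 0.27, adjusted p = 0.00422), and Klf13 (log2 fold change -2.08 ± 0.49, adjusted p = 0.0249) and Klf8 (log2 fold change -1.15 ± 0.26, adjusted p = 0.0207). Klf13 was at 17.4 and 17.8 CPM in control and 5.80, 6.93, 1.89 and 1.77 CPM in dKD, lowest in dKD replicates 3 and 4. Klf2, a partner of Klf4 and Klf5 in embryonic stem cells, was at 126 to 147 CPM in control and 92.4 to 146 CPM in dKD and did not pass. Klf17, which is abundant in early embryos, was at 45.4 to 57.9 CPM in control and 64.9 to 102.01 CPM in dKD and did not pass either. Without dKD replicates 3 and 4, 3 of 12 members fell, and without dKD replicates 1 and 2, 5 of 12 did, while the share of all genes that fell went from 3.24 to 9.77%.

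Of the inner cell mass and pluripotency factors 4 fell and 1 rose of 21 tested, against 3.85 and 3.38% of all genes, and their median lay -0.35 from that of all genes. The genes that fell were Tdgf1, Klf4, Sall1, a zinc finger repressor expressed in pluripotent cells, at 27.2 and 29.3 CPM in control and 10.5, 10.9, 4.36 and 3.65 CPM in dKD (log2 fold change -1.92 ± 0.41, adjusted p = 0.0154), and Tfcp2l1, a factor of the naive state (log2 fold change -1.08 ± 0.29, adjusted p = 0.0433), which passed in 11 of 19 alternatives. Utf1, a chromatin factor of pluripotent cells, rose (log2 fold change 1.46 ± 0.37, adjusted p = 0.0356). Nanog was at 12.7 and 12.4 CPM in control and 8.07, 5.09, 1.89 and 1.06 CPM in dKD (log2 fold change -1.62 ± 0.59, adjusted p = 0.115) and did not pass, although no dKD library reached the control range. It passed in 3 of 19 alternatives, DESeq2 not among them. Pou5f1 (Oct4) was at 9.68 to 14.1 CPM in control and 6.29 to 10.2 CPM in dKD, and Esrrb, an orphan receptor of the same network, at 17.9 to 21.3 and 28.4 to 38.5 CPM, with neither called. Sox2 had counts in 1 control library only and was too low to be tested.

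Of the trophectoderm factors and keratins, 1 fell and 3 rose of 12 tested, against 3.85 and 3.38% of all genes. The difference from the inner cell mass list was not tested. Hand1, a factor of the trophoblast lineage, fell and was at 43.2 and 49.1 CPM in control and 9.71, 10.3, 0.236 and 5.42 CPM in dKD (log2 fold change -2.83 ± 0.66, adjusted p = 0.0239), lowest in dKD replicate 3. Id2, an inhibitor of basic helix-loop-helix factors that marks outer cells, rose from 0.454 and 1.47 to 5.55, 33.2, 6.48 and 14.7 CPM (log2 fold change 3.93 ± 0.86, adjusted p = 0.0175). Fabp3, a fatty acid binding protein, was at 26.7 and 34.0 CPM in control and 94.3, 174, 263 and 127 CPM in dKD (log2 fold change 2.48 ± 0.40, adjusted p = 0.00559). The endocytic receptor Lrp2 also rose (log2 fold change 1.90 ± 0.50, adjusted p = 0.0399). Cdx2, the defining trophectoderm factor, had 9 counts over both control libraries and none in dKD, which was too low to be tested, with levels of 0.302 and 0.937 CPM in control. Gata3 was at 2.42 to 6.83 CPM in control and 4.83 to 16.5 CPM in dKD, and Krt8 at 2.81 to 2.87 and 5.30 to 6.89 CPM, and neither passed. The median of the list was 0.97 above that of all genes, and the sign of this difference turned when only genes with a mean of at least 50 counts were kept. No gene of the primitive endoderm list passed in either direction (12 tested).

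Gata factors and X-inactivation transcripts were tested because the study follows Gata genes and Xist. Gata1 fell and was at 41.3 and 35.1 CPM in control and 12.5, 12.9, 7.90 and 5.18 CPM in dKD (log2 fold change -1.96 ± 0.33, adjusted p = 0.0066). Gata4 was at 18.3 and 12.4 CPM in control and 15.6, 9.90, 7.19 and 10.8 CPM in dKD (log2 fold change -0.46 ± 0.34, adjusted p = 0.45), and its groups overlapped. Gata6 was at 147 and 143 CPM in control and 112, 115, 123 and 123 CPM in dKD (log2 fold change -0.25 ± 0.19, adjusted p = 0.451), with a narrow spread in both groups. Xist, the long non-coding RNA that silences an X chromosome in female cells, was at 199.98 and 220.1 CPM in control and 72.6, 78.7, 24.6 and 69.3 CPM in dKD (log2 fold change -1.75 ± 0.35, adjusted p = 0.0119). Tsix, its antisense partner, fell alike (log2 fold change -1.95 ± 0.38, adjusted p = 0.0103), but the reads were counted without strand, so the pair cannot be told apart. Eif2s3y, a Y-linked translation factor gene, rose from 15.6 and 12.6 to 45.6, 50.3, 80.6 and 50.9 CPM (log2 fold change 2.06 ± 0.31, adjusted p = 0.004), and it was the single Y-linked gene of 7 tested that passed. Ddx3y, another gene of that sum, was at 13.9 to 24.5 CPM in control and 18.7 to 33.1 CPM in dKD, and Kdm5d at 1.97 to 2.28 and 1.64 to 3.06 CPM, with overlap in both. Most of the difference in the sum was thus that of Eif2s3y. All 7 tested Y-linked genes had positive log2 fold changes, with a median of 1.38. Lower Xist went with a higher Y-linked sum, the sexes of the pooled embryos are not known, and a different mix of the sexes and an effect of the knockdown cannot be told apart. On the X chromosome 5.98% of 468 tested genes fell and 4.27% rose, with a median log2 fold change of -0.09.

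Signaling genes were taken by pathway. In the Nodal, TGF-beta and BMP list 3 genes fell and 2 rose of 30 tested, against 3.85 and 3.38% of all genes. Bmp7, a BMP ligand, was at 1.81 and 1.74 CPM in control and had no count in dKD, at least 18.9-fold lower with a floor of 3 counts over the dKD libraries. Ski, a repressor of SMAD activity, fell from 19.8 and 26.2 to 11.1, 11.6, 7.90 and 8.83 CPM (log2 fold change -1.19 ± 0.28, adjusted p = 0.0244). Gsc, a homeobox gene activated by Nodal in later embryos, rose and was at 3.93 and 3.75 CPM in control and 28.5, 27.9, 14.02 and 23.8 CPM in dKD (log2 fold change 2.65 ± 0.37, adjusted p = 0.00284). Nodal itself had no count in any of the 6 libraries. Smad7, an inhibitor of the pathway, was at 2.42 and 12.6 CPM in control and 2.27, 2.55, 0.943 and 1.06 CPM in dKD (log2 fold change -2.11 ± 0.64, adjusted p = 0.0656) and did not pass. Its control libraries were far apart, and the lower one lay inside the range of dKD. It passed in 4 of 18 alternatives, DESeq2 among them.

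Wnt genes rose in 4 of 28 tested and none fell, against 3.38 and 3.85% of all genes. Of the 28, 14 had negative and 14 positive log2 fold changes, and their median lay -0.04 from that of all genes. Dkk1, a secreted Wnt inhibitor, had 0.504 CPM in control replicate 1, none in replicate 2 and 10.6, 3.54, 20.7 and 19.6 CPM in dKD (log2 fold change 5.93 ± 1.03, adjusted p = 0.00676). Wls, the carrier that brings Wnt ligands to the cell surface, had no count in control and 2.52, 3.82, 3.42 and 1.65 CPM in dKD, at least 13.2-fold higher. Fzd4, a Wnt receptor (log2 fold change 3.36 ± 0.80, adjusted p = 0.0254), and Sfrp1, a secreted inhibitor (log2 fold change 1.36 ± 0.37, adjusted p = 0.0443), rose too. So did Notum, an enzyme that inactivates Wnt ligands, named after its values were seen (log2 fold change 3.26 ± 0.60, adjusted p = 0.00873). The co-receptor Ryk was at 22.7 and 14.2 CPM in control and 4.92, 10.7, 6.84 and 9.54 CPM in dKD (log2 fold change -1.16 ± 0.36, adjusted p = 0.0685) and did not pass, but it did in 3 of 19 alternatives, DESeq2 among them.

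In the FGF, ERK and protein kinase C list 1 gene fell and 3 rose of 36 tested, against 3.85 and 3.38% of all genes. Dusp6, a phosphatase that acts on ERK, rose and was at 3.93 and 2.54 CPM in control and 15.1, 52.3, 17.1 and 34.5 CPM in dKD (log2 fold change 3.23 ± 0.56, adjusted p = 0.00684). Spry2, another feedback inhibitor, was at 15.2 and 18.2 CPM in control and 49.9, 52.7, 39.4 and 38.9 CPM in dKD (log2 fold change 1.47 ± 0.25, adjusted p = 0.00669). Rps6ka1, the ERK-activated kinase RSK1, rose (log2 fold change 2.03 ± 0.48, adjusted p = 0.0254). Sos1, an exchange factor that activates Ras, fell from 174 and 142 to 64.6, 67.3, 45.7 and 49.7 CPM (log2 fold change -1.44 ± 0.22, adjusted p = 0.00404). Prkcd was at 42.5 and 40.4 CPM in control and 13.2, 20.2, 17.4 and 30.3 CPM in dKD (log2 fold change -0.99 ± 0.30, adjusted p = 0.0688) and did not pass, although its dKD libraries lay below control. It passed in 5 of 19 alternatives, DESeq2 and the replicate block among them. Prkcz, the atypical kinase of the apical polarity complex, was at 58.7 and 65.6 CPM in control and 30.3, 21.7, 13.2 and 15.0 CPM in dKD (log2 fold change -1.60 ± 0.30, adjusted p = 0.00951). It was the single gene of 29 on the apical polarity list that passed.

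Stress-activated MAP kinase genes fell in 2 and rose in 1 of 27 tested, against 3.85 and 3.38% of all genes. Map2k6, the kinase upstream of p38, was at 3.02 and 3.08 CPM in control and had 1 count over the 4 dKD libraries, a dKD to control ratio of 0.0102 (95% interval 0.000254 to 0.0602). Atf2, a factor that p38 activates, was at 115 and 108 CPM in control and 45.5, 37.1, 20.6 and 21.7 CPM in dKD (log2 fold change -1.81 ± 0.30, adjusted p = 0.00587). Jun, a partner of ATF2, had 2 counts in control and reached 1.06 to 2.27 CPM in dKD, a ratio of 12.8 (95% interval 3.38 to 108). In the JAK-STAT list Socs5, a feedback inhibitor, fell (log2 fold change -2.88 ± 0.62, adjusted p = 0.0165). Stat6 rose from 0.454 and 0.937 to 11.7, 9.90, 16.9 and 15.3 CPM (log2 fold change 4.27 ± 0.50, adjusted p = 0.00131), of 22 tested.

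Of the Hippo pathway, the kinase Lats2 fell and was at 40.3 and 39.3 CPM in control and 11.4, 21.6, 13.4 and 8.42 CPM in dKD (log2 fold change -1.502 ± 0.32, adjusted p = 0.0166). Frmd6, an upstream activator of the pathway, rose (log2 fold change 2.05 ± 0.52, adjusted p = 0.0347), as did Ccn1, a target of the co-activator YAP (log2 fold change 2.35 ± 0.53, adjusted p = 0.0206), of 25 tested. Tead4, the DNA-binding partner of YAP in the trophectoderm, was at 100.4 and 95.4 CPM in control and 50.8, 63.6, 60.3 and 48.7 CPM in dKD and its log2 fold change of -0.77 ± 0.21 (adjusted p = 0.0426) was under the 2-fold minimum. Yap1 was at 28.9 to 41.6 CPM in control and 26.0 to 36.2 CPM in dKD, and the groups overlapped. Claudins and occludin seal the outer layer of the embryo. Cldn4 (log2 fold change -1.81 ± 0.44, adjusted p = 0.0287) and Ocln (log2 fold change -1.03 ± 0.27, adjusted p = 0.0364) fell. Cldn7 rose from 29.2 and 31.7 to 79.8, 74.4, 151 and 117 CPM (log2 fold change 1.84 ± 0.33, adjusted p = 0.00756), as did Cldn12 (log2 fold change 1.64 ± 0.44, adjusted p = 0.0426). Of the 19 genes tested on that list, 2 fell and 2 rose, and without dKD replicates 1 and 2 it was 6 and 2 of 18, where 9.77% of all genes fell and 8.85% rose. Cldn4, Cldn7, Cldn12 and Ocln passed in 11, 16, 11 and 9 of 19 alternatives, and Cldn4 and Ocln were lost without dKD replicate 3 or 4.

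Genes of the p53 pathway and apoptosis fell in 6 of 37 tested, with 2 higher, against 3.85 and 3.38% of all genes. Of the 37, 19 had negative and 18 positive log2 fold changes. Casp6, an executioner caspase, fell and was at 165 and 120.3 CPM in control and 47.4, 28.7, 43.4 and 45.5 CPM in dKD (log2 fold change -1.75 ± 0.25, adjusted p = 0.00281). The BCL2 family members Bok (log2 fold change -2.27 ± 0.28, adjusted p = 0.00177) and Bad (log2 fold change -2.06 ± 0.34, adjusted p = 0.00605), which promote cell death, fell as well. The p53 targets Trp53inp1 (-1.42) and Ei24 (-1.01), named after their values were seen, fell. Perp, a membrane protein of cell junctions and a p53 target, rose from 13.6 and 12.7 to 43.8, 43.6, 48.4 and 37.6 CPM (log2 fold change 1.76 ± 0.25, adjusted p = 0.00284) and Plk2 also rose (log2 fold change 2.14 ± 0.51, adjusted p = 0.0258). Cdkn1a, a p53 target that halts the cell cycle, was at 34.1 to 37.5 CPM in control and 27.0 to 61.4 CPM in dKD, with overlap. Mdm2, a p53 target that degrades p53, was at 40.2 and 31.1 CPM in control and 56.2, 65.1, 60.1 and 59.7 CPM in dKD, and its log2 fold change of 0.80 ± 0.22 (adjusted p = 0.0482) was under the 2-fold minimum. The list's median lay -0.13 from that of all genes.

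The study named Rad51c, Rnaseh2c, Pold1 and Aunip as DNA repair genes lowered specifically in its dKD. The other genes of repair and replication given here come from the lists. Rad51c, a factor of homologous recombination, fell and was at 11.0 and 12.3 CPM in control and 3.78, 0.424, 1.89 and 2.83 CPM in dKD (log2 fold change -2.33 ± 0.56, adjusted p = 0.0255). Rnaseh2c, a subunit of the enzyme that removes ribonucleotides from DNA, was at 29.6 and 36.5 CPM in control and 19.9, 13.6, 13.5 and 11.1 CPM in dKD (log2 fold change -1.15 ± 0.28, adjusted p = 0.0269). Pold1, the catalytic subunit of DNA polymerase delta, was at 17.5 and 20.7 CPM in control and 10.1, 11.46, 8.37 and 5.65 CPM in dKD (log2 fold change -1.07 ± 0.32, adjusted p = 0.061). Aunip, a factor of DNA end resection, was at 20.9 and 11.0 CPM in control and 4.67, 5.59, 8.25 and 8.48 CPM in dKD (log2 fold change -1.18 ± 0.37, adjusted p = 0.0731), and neither passed although no dKD library reached the control range. With DESeq2 both passed, as they did in 5 (Pold1) and 4 (Aunip) of 19 alternatives in all. On the homologous recombination and Fanconi list 4 of 50 fell and 2 rose. Fance (log2 fold change -2.42 ± 0.45, adjusted p = 0.00905) and Faap20 (log2 fold change -1.87 ± 0.40, adjusted p = 0.0153), components of the Fanconi complex, fell. Rbbp8, which starts end resection, fell too (log2 fold change -1.17 ± 0.24, adjusted p = 0.0133). The checkpoint kinase Atr (log2 fold change 1.27 ± 0.30, adjusted p = 0.0238) and the motor protein Rad54l (log2 fold change 1.26 ± 0.28, adjusted p = 0.0201) rose. Of the DNA replication list 1 of 59 fell and 3 rose, among them the sliding clamp Pcna, from 52.7 and 54.5 to 91.2, 89.9, 154 and 129 CPM (log2 fold change 1.16 ± 0.28, adjusted p = 0.0262), the kinase Cdc7 (1.06) and the primase subunit Prim1 (1.28). Parp1, which senses strand breaks, fell from 63.4 and 62.6 to 26.7, 18.8, 23.0 and 20.5 CPM (log2 fold change -1.46 ± 0.22, adjusted p = 0.00409), and Xpa (1.24) and Gtf2h4 (1.24), both of nucleotide excision repair, rose. These are counts of a few genes per list, against 3.85% lower and 3.38% higher among all genes.

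Cell cycle genes were mostly not called, with 2 lower and 2 higher of 50 tested. Cdk1, the mitotic kinase, fell and was at 335 and 311 CPM in control and 113, 129.8, 152 and 169.7 CPM in dKD (log2 fold change -1.15 ± 0.21, adjusted p = 0.00868). Cdc25b, the phosphatase that activates it, fell from 11.0 and 6.89 to 0.378, 0, 0.118 and 0.353 CPM (log2 fold change -5.22 ± 0.68, adjusted p = 0.00221). Cdc20, an activator of the anaphase-promoting complex, rose from 114 and 90.6 to 174, 183, 267 and 256 CPM (log2 fold change 1.148 ± 0.26, adjusted p = 0.0204), and Ccnd3 (cyclin D3) also rose (log2 fold change 1.25 ± 0.30, adjusted p = 0.0276). The nucleotide synthesis genes Rrm2, a ribonucleotide reductase subunit (log2 fold change -1.10 ± 0.23, adjusted p = 0.0145), and Ctps2 (log2 fold change -1.80 ± 0.27, adjusted p = 0.00375) fell, and Adsl rose (log2 fold change 1.42 ± 0.31, adjusted p = 0.0177), of 40 tested.

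Metabolic genes moved in both directions. Mpc1, a subunit of the mitochondrial pyruvate carrier, was at 428 and 406 CPM in control and 92.7, 39.8, 26.8 and 34.0 CPM in dKD, or 11.6% of control (log2 fold change -3.08 ± 0.39, adjusted p = 0.00177). The antisense 4930506C21Rik overlaps it and fell too (-3.10 on the log2 scale), so their reads may be shared, and the pseudogene Mpc1-ps fell as well (-3.02), all named with these values seen. On the glycolysis list 5 of 34 rose and 1 fell, against 3.38 and 3.85% of all genes. Hk2, the hexokinase that starts glycolysis, was at 12.9 and 15.1 CPM in control and 47.8, 47.8, 34.5 and 30.4 CPM in dKD (log2 fold change 1.55 ± 0.28, adjusted p = 0.00829). Ldha, which makes lactate, rose from 5.14 and 2.28 to 8.70, 17.4, 19.7 and 20.1 CPM (log2 fold change 2.20 ± 0.47, adjusted p = 0.0156). The germline form Ldhc, named after its values were seen, rose too (log2 fold change 1.95 ± 0.36, adjusted p = 0.00851). Bpgm (2.03), a phosphoglycerate mutase, and Dlat (1.45), a pyruvate dehydrogenase subunit, rose on the log2 scale. Fbp2, a fructose bisphosphatase named after its values were seen, was at 84.2 and 71.2 CPM in control and 124, 159, 611 and 418 CPM in dKD (log2 fold change 2.13 ± 0.58, adjusted p = 0.0448). The rise lay mostly in dKD replicates 3 and 4. Without these replicates 3 of 33 genes on the list rose and 2 fell, against 2.25 and 3.24% of all genes. The list's median was 0.57 above that of all genes.

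On the TCA cycle list, Idh1 (log2 fold change -2.65 ± 0.32, adjusted p = 0.00154), the cytosolic and peroxisomal isocitrate dehydrogenase, fell, and fumarase Fh1 rose (log2 fold change 1.52 ± 0.34, adjusted p = 0.0198). Fdx1, the ferredoxin that passes electrons to steroid-making P450 enzymes, was at 82.6 and 68.9 CPM in control and 14.5, 9.05, 7.07 and 10.0 CPM in dKD (log2 fold change -2.86 ± 0.27, adjusted p = 0.000602). Ndufa8, a subunit of complex I, fell (log2 fold change -1.83 ± 0.40, adjusted p = 0.0173) and was the single gene of 96 on the nuclear oxidative phosphorylation list that passed. None of the 13 messenger RNAs of the mitochondrial genome was called, although all 13 had negative log2 fold changes and their median lay -0.69 from that of all genes. Of all 35 tested genes on that genome, 1 was called lower. mt-Cytb, a subunit of complex III, was at 55153 and 50762 CPM in control and 44741, 43998, 20153 and 17305 CPM in dKD. Its level in dKD replicates 1 and 2 was near control, and the low values were those of replicates 3 and 4. These 13 genes are part of the mitochondrial share by which the pairs were seen to differ, which counts all genes of that genome. Their difference between the pairs is thus no separate observation.

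Lipid genes included 3 that fell and 5 that rose of 36 tested, against 3.85 and 3.38% of all genes. The desaturases went apart. Scd1 fell from 29.8 and 23.2 to 8.70, 11.7, 4.36 and 9.07 CPM (log2 fold change -1.61 ± 0.34, adjusted p = 0.0156) and Scd2 rose from 0.151 and 1.07 to 7.57, 3.39, 7.07 and 11.2 CPM (log2 fold change 3.55 ± 0.73, adjusted p = 0.014). Fatty acid synthase, Fasn, rose (log2 fold change 1.34 ± 0.27, adjusted p = 0.0116), as did Fabp3 and Fabp5 (1.01), the latter named after its values were seen. Agpat2, which adds an acyl chain in phospholipid and triglyceride synthesis, fell and was at 95.9 and 115 CPM in control and 33.5, 45.2, 31.1 and 36.5 CPM in dKD (log2 fold change -1.49 ± 0.22, adjusted p = 0.00326). Of the phospholipases A2, Pla2g10 (log2 fold change -2.29 ± 0.32, adjusted p = 0.00261), Pla2g12a (log2 fold change -1.34 ± 0.22, adjusted p = 0.00534) and Pla2g7 (log2 fold change -4.08 ± 1.08, adjusted p = 0.0394) fell. They were picked by a scan of families by symbol, in which 3 of 12 tested members of the Pla series fell, against 3.85% of all genes, and none rose. Pla2g7 passed in 9 of 18 alternatives. Of the cholesterol synthesis genes 2 passed, with Soat2, which esterifies cholesterol, lower (log2 fold change -1.69 ± 0.38, adjusted p = 0.0211) and Insig1, a brake on the pathway, higher (log2 fold change 1.91 ± 0.32, adjusted p = 0.00597), of 34 tested.

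Among known NR5A targets of steroid and bile acid metabolism, Fdx1 fell and Abcb11, the bile salt export pump, rose, of 7 tested. Abcb11 had no count in control and was at 3.03, 5.23, 5.66 and 5.89 CPM in dKD, at least 23.3-fold higher. Nr0b2 (Shp) and Hnf4a, partners of NR5A2 in the liver, had 1 and no counts in control and none in dKD.

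On the unfolded protein and integrated stress response list 6 of 34 rose and 1 fell, against 3.38 and 3.85% of all genes. Slc3a2, a subunit of amino acid exchangers, was at 17.5 and 7.09 CPM in control and 49.7, 39.4, 71.4 and 47.1 CPM in dKD (log2 fold change 2.13 ± 0.39, adjusted p = 0.00861). Edem1, which sends misfolded glycoproteins to degradation, was at 4.39 and 8.10 CPM in control and 29.1, 17.1, 17.3 and 19.9 CPM in dKD (log2 fold change 1.78 ± 0.37, adjusted p = 0.014). Ppp1r15a (Gadd34), which reverses the block on translation, rose from 1.06 and 4.68 to 7.88, 9.62, 12.8 and 18.6 CPM (log2 fold change 2.10 ± 0.57, adjusted p = 0.0438). Chac1, a glutathione-degrading enzyme induced by ATF4, had 2 counts in control and 1.51, 3.39, 3.54 and 2.36 CPM in dKD, a ratio of 18.9 (95% interval 5.09 to 159). The kinase Eif2ak4 (Gcn2) also rose (log2 fold change 1.43 ± 0.40, adjusted p = 0.0491), as did Calr (1.14), the last named after its values were seen, and Cebpg, a partner of ATF4, fell (log2 fold change -1.02 ± 0.19, adjusted p = 0.00968). Atf4 itself was at 96.6 to 113 CPM in control and 99.7 to 134 CPM in dKD and Ddit3 (Chop) at 7.64 to 8.08 and 5.80 to 8.87 CPM, with overlap. Without dKD replicates 3 and 4, 4 of 34 rose, against 2.25% of all genes.

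Chaperones had 2 genes that rose of 36 tested and a median 0.62 above that of all genes. Hsph1, a partner of HSP70, was at 42.6 and 29.3 CPM in control and 101, 96.7, 172 and 155 CPM in dKD (log2 fold change 1.91 ± 0.32, adjusted p = 0.00611). The mitochondrial chaperonin Hspd1 was at 45.9 and 43.1 CPM in control and 57.7, 84.6, 138 and 116 CPM in dKD (log2 fold change 1.20 ± 0.33, adjusted p = 0.0484). In both the 2 highest values were dKD replicates 3 and 4. Hspa8 was at 1432 and 944 CPM in control and 1358, 1218, 2742 and 2807 CPM in dKD and was not called. With dKD replicates 1 and 2 left out, 14 of 35 chaperones rose, 8 of 23 aminoacyl-tRNA synthetases and 10 of 46 proteasome genes, against 8.85% of all genes in that comparison. With replicates 3 and 4 left out, 1 of 35, none of 23 and none of 46 rose, against 2.25% of all genes, and the proteasome median then lay -0.05 from that of all genes. In the full comparison no aminoacyl-tRNA synthetase and no gene of ribosome biogenesis was called, although 22 of 23 and 37 of 46 had positive log2 fold changes, with medians 0.50 and 0.41 above that of all genes.

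Genes of the translation machinery were rarely called. Eif4e, the protein that binds the mRNA cap, was the single translation factor of 60 that fell and was at 2872 and 2080.3 CPM in control and 1171, 838, 1198 and 1136 CPM in dKD (log2 fold change -1.15 ± 0.21, adjusted p = 0.00855). The lower control library was 1.74-fold above the highest dKD library. Of the ribosomal protein genes 1 of 89 rose, the germline form Rpl10l (log2 fold change 1.55 ± 0.42, adjusted p = 0.0422), and of the mitochondrial ones 2 of 80, Mrpl16 (1.19) and Mrps27 (1.39). None of 52 splicing factors passed. Psme1, a subunit of the proteasome activator PA28, was the single proteasome gene of 46 that passed and fell from 33.9 and 24.1 to 6.62, 1.77, 1.89 and 1.65 CPM (log2 fold change -3.25 ± 0.49, adjusted p = 0.00399).

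Antioxidant genes included Gpx4, which protects membranes from lipid peroxidation and fell from 288 and 335 to 167, 141, 133 and 123 CPM (log2 fold change -1.10 ± 0.20, adjusted p = 0.00768). The glutathione S-transferases Mgst3 (log2 fold change 2.03 ± 0.46, adjusted p = 0.0215) and Gsta3 (log2 fold change 2.18 ± 0.52, adjusted p = 0.0252) rose, of 43 tested, as did G6pdx, which supplies NADPH (log2 fold change 1.85 ± 0.46, adjusted p = 0.0324). In the autophagy list Atg16l2 (log2 fold change -2.61 ± 0.33, adjusted p = 0.00177) and Atg4b (log2 fold change -1.28 ± 0.35, adjusted p = 0.0448) fell, of 72 tested. The receptor Sqstm1 rose (log2 fold change 1.09 ± 0.28, adjusted p = 0.0353). Atg4b overlaps Thap4, which fell too.

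Matrix and adhesion genes were among the lists with most calls, at 3 lower and 6 higher of 31, against 3.85 and 3.38% of all genes. The list held 90 genes, of which 31 were high enough to be tested and 15 had no count in any of the 6 libraries. Postn, the matrix protein periostin, had no count in control and was at 6.81, 14.6, 8.72 and 4.12 CPM in dKD, at least 39.1-fold higher. Vtn (vitronectin) was at 2.12 and 2.68 CPM in control and 20.9, 15.6, 7.78 and 11.1 CPM in dKD (log2 fold change 2.55 ± 0.47, adjusted p = 0.00861). Among integrin subunits, Itgb7 rose from 6.20 and 5.76 to 16.1, 29.0, 59.9 and 49.1 CPM (log2 fold change 2.73 ± 0.51, adjusted p = 0.00897) and Itga3 rose (1.66), while Itga1 fell (log2 fold change -2.44 ± 0.53, adjusted p = 0.0175). Itgb3 (2.81) rose too and was named after its values were seen. Cav1, the coat protein of caveolae, was at 2.57 and 3.35 CPM in control and had no count in dKD, at least 31.8-fold lower, and Col9a2 fell (log2 fold change -5.06 ± 0.89, adjusted p = 0.00731). The endothelial adhesion molecule Pecam1, on the list of blood and oviduct cell markers, fell from 21.9 and 21.6 to 6.24, 3.11, 2.65 and 3.30 CPM (log2 fold change -2.47 ± 0.36, adjusted p = 0.00333). Hba-a1 on the same list rose (log2 fold change 2.02 ± 0.49, adjusted p = 0.0275) while the beta globins had no counts. The part of other cell types in these results was not tested.

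Interferon-induced membrane proteins rose together in a cluster on chromosome 7. Ifitm2 was at 41.7 and 58.3 CPM in control and 176, 262, 236 and 166 CPM in dKD (log2 fold change 2.11 ± 0.28, adjusted p = 0.00238). Ifitm1 rose from 22.5 and 28.0 to 58.6, 84.4, 53.03 and 64.0 CPM (log2 fold change 1.399 ± 0.26, adjusted p = 0.00889) and Ifitm3 rose (log2 fold change 2.02 ± 0.52, adjusted p = 0.0363). The neighbouring Nlrp6, an inflammasome gene, had no count in control and was at 7.19, 6.93, 7.19 and 11.4 CPM in dKD, at least 38.8-fold higher, so that chr7:140920902-141010770 (GRCm38) held 5 genes in a row that rose. Gm45717 among them overlaps Ifitm2 on the same strand, so their reads may be shared. No other gene of the 16 tested on the interferon list was called.

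A scan covered 139 families that share the letters of their symbol and have at least 10 tested members. Picked for the largest share of genes that rose, the retinol dehydrogenases, at that minimum, had 4 of 10 (40.0%), against 3.38% of all genes. These were Rdh1, Rdh9, Rdh12 and Rdh16f1. Rdh1, Rdh16f1 and Rdh9 lie side by side at chr10:127759721-127792697 and their annotated gene spans overlap. Rdh1 had no count in control and was at 6.37, 6.93, 10.1 and 4.36 CPM in dKD, at least 32.6-fold higher. Rdh9 and Rdh16f1 (the latter named after its values were seen) had 3 and 2 counts in control, with dKD to control ratios of 11.6 (95% interval 3.83 to 57.4) and 20.99 (95% interval 5.63 to 175). Reads may be shared between these relatives. Rdh12, on another chromosome, was at 1.51 and 0.535 CPM in control and 7.44, 16.0, 28.5 and 10.5 CPM in dKD (log2 fold change 3.98 ± 0.69, adjusted p = 0.00677).

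Transcripts that the oocyte leaves to the embryo were called in 2 of 38, both lower. Khdc3 (Filia), of the maternal subcortical complex, was at 90.9 and 105 CPM in control and 17.2, 8.41, 7.90 and 6.95 CPM in dKD (log2 fold change -3.24 ± 0.32, adjusted p = 0.000654). Nlrp5 (Mater), of the same complex, was at 18.4 and 17.7 CPM in control and 8.07, 6.36, 6.84 and 9.89 CPM in dKD (log2 fold change -1.17 ± 0.29, adjusted p = 0.0324). The list's median lay -0.38 from that of all genes while its summed CPM was higher in every dKD library, from 15403 and 17871 CPM in control to 20070 to 23159 CPM in dKD (exact p = 0.0667). Most of that sum was Dppa3 (Stella), at 14409.7 to 17135 CPM in control and 19759 to 22866 CPM in dKD, which was not called. Zp3, the egg coat protein, was at 45.4 to 46.4 CPM in control and 30.8 to 36.9 CPM in dKD and was not called. Of the genes of 2-cell activation 1 of 30 rose, Zfp352, from 0.605 and 0.535 to 3.66, 4.24, 4.596 and 3.42 CPM (log2 fold change 2.81 ± 0.60, adjusted p = 0.0156). Their median was 0.47 above that of all genes, and the sign of this difference turned without dKD replicates 3 and 4. Zscan4c was at 0.402 to 0.454 CPM in control and 0 to 2.12 CPM in dKD. No Obox homeobox gene of 7 tested was called, whereas 5 Obox3 pseudogenes in a row at chr7:14694074-15295548 rose, with log2 fold changes of 1.73 to 4.22.

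Chromatin modifiers were called in 5 of 70. Jarid2, a subunit of Polycomb complex 2, fell and was at 116 and 108 CPM in control and 40.2, 31.7, 45.7 and 37.3 CPM in dKD (log2 fold change -1.49 ± 0.22, adjusted p = 0.00322). The histone methyltransferases Setd2 (log2 fold change -1.30 ± 0.20, adjusted p = 0.00404) and Kmt2c (log2 fold change -1.03 ± 0.26, adjusted p = 0.0343) fell. The demethylase Kdm5b (log2 fold change 1.13 ± 0.23, adjusted p = 0.0132) and the deacetylase Hdac2 (log2 fold change 1.20 ± 0.31, adjusted p = 0.0354) rose. Of the imprinted genes Igf2r (-1.76), Usp29 (-1.64) and Bmp7 fell and Sfmbt2 (2.32) and Rasgrf1 rose, of 30 tested, Rasgrf1 from no count to 1.88 to 2.71 CPM, at least 11.6-fold higher. Of the glucose and amino acid transporters 1 fell and 3 rose of 35 tested. The taurine transporter Slc6a6 was lower (log2 fold change -1.14 ± 0.28, adjusted p = 0.032), and Slc3a2, described above, Slc6a15 (1.30) and Slc38a11 were higher, Slc38a11 from no count to 1.13 to 3.65 CPM, at least 11.2-fold higher. Zinc finger genes of the Zfp series fell in 6 and rose in 9 of 287 tested (2.09 and 3.14%), against 3.85 and 3.38% of all genes, and the difference was not tested. Zfp932 was at 484 and 393 CPM in control and 169, 165, 192 and 153 CPM in dKD (log2 fold change -1.33 ± 0.19, adjusted p = 0.00326). Zfp623 was at 2.42 and 2.54 CPM in control and 12.4, 27.4, 16.0 and 15.9 CPM in dKD (log2 fold change 2.88 ± 0.42, adjusted p = 0.00331).

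**Figure D4:**
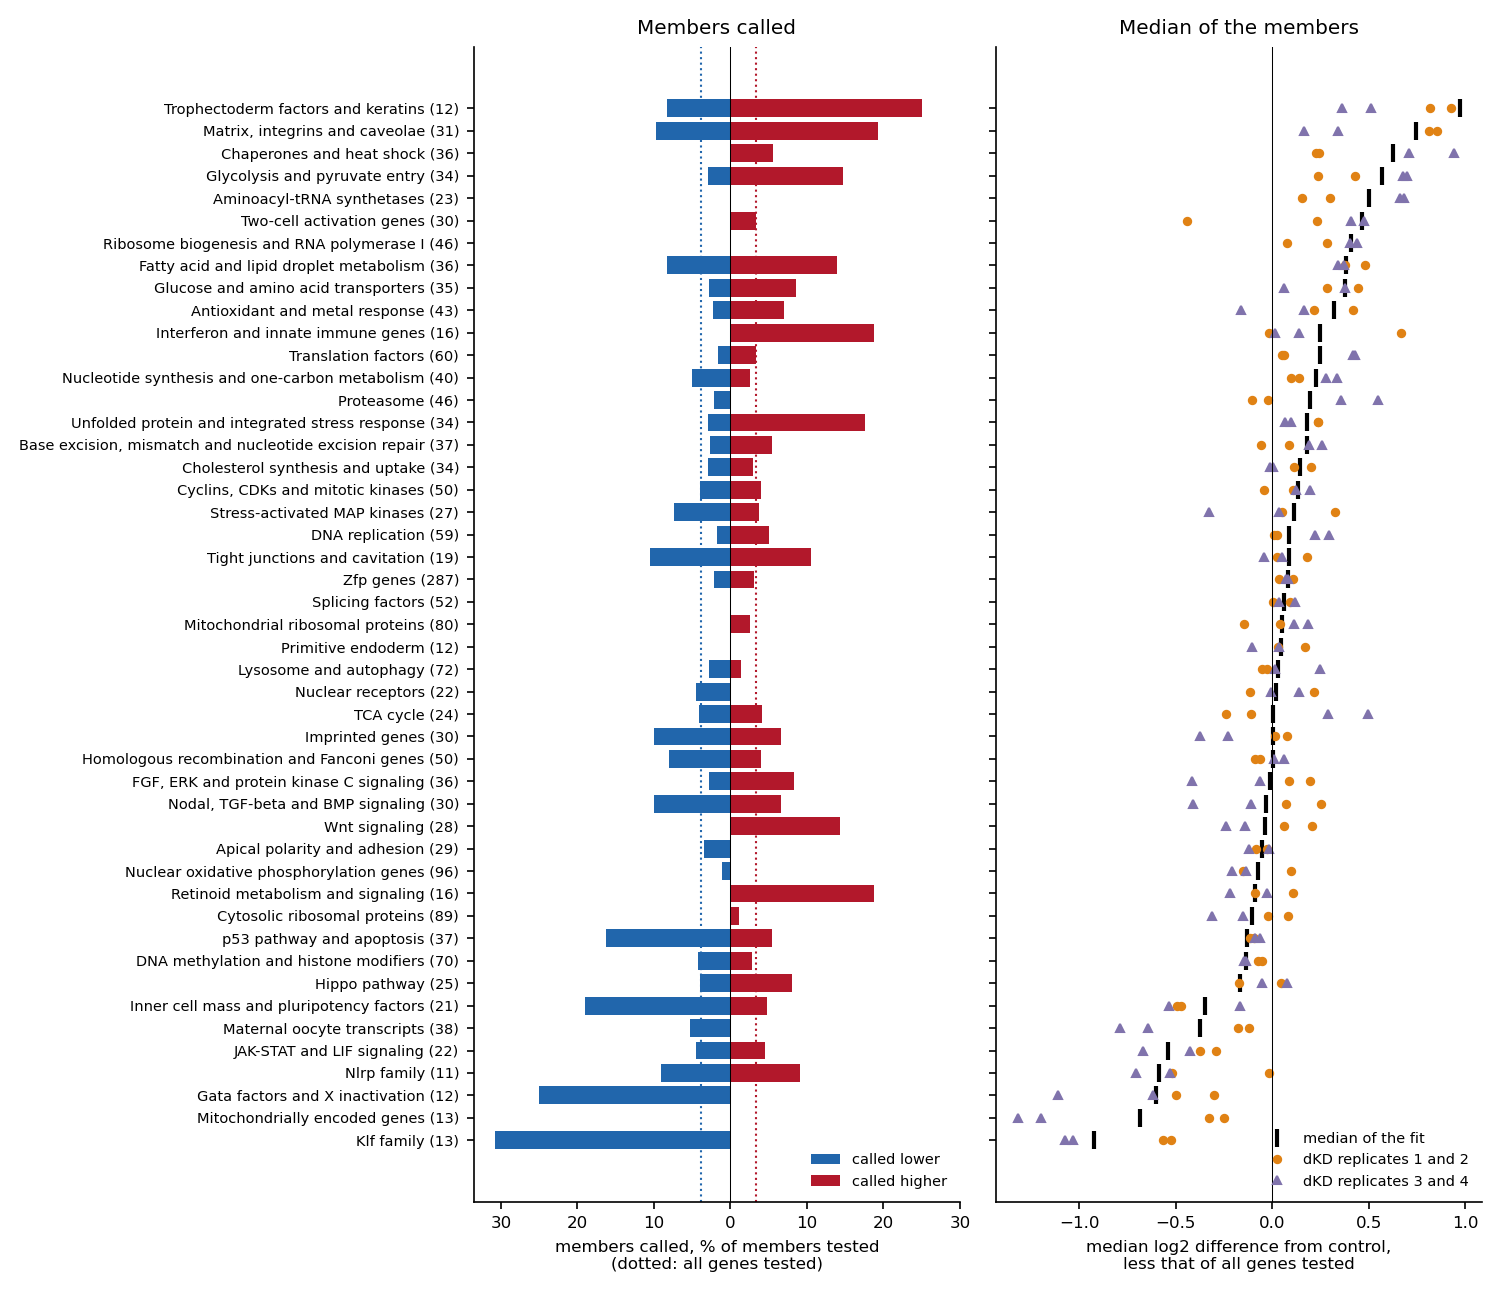
For each gene list with at least 10 tested members (number in brackets), the left panel shows the percentage of tested members called lower (blue) and higher (red), with dotted lines at 3.85 and 3.38% for all genes tested. The right panel shows the median log2 difference from control less that of all genes, as a tick for the fit and as points for each dKD library from log2(CPM + 0.5). The Klf family and the mitochondrially encoded genes have the lowest medians (-0.92 and -0.69), and in the latter dKD replicates 3 and 4 lie far below replicates 1 and 2.

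Some of the largest shifts in counts belonged to genes outside these lists, all named after their values were seen. Crxos, an oocyte and embryo homeobox gene, was at 7785 and 8865 CPM in control and 3463, 2580.2, 2612 and 2138 CPM in dKD (log2 fold change -1.59 ± 0.20, adjusted p = 0.00177). Sat1, which degrades polyamines, was at 6004 and 5197 CPM in control and 2570.2, 1802, 2262 and 2893 CPM in dKD (log2 fold change -1.19 ± 0.20, adjusted p = 0.00664). The RNA-binding Larp4 (log2 fold change -1.49 ± 0.20, adjusted p = 0.00256), the corepressor component Mier3 (log2 fold change -1.76 ± 0.18, adjusted p = 0.000799) and the Polycomb partner Mtf2 (log2 fold change -1.61 ± 0.18, adjusted p = 0.00107) fell too. In each of these 5 genes, as in all 529 called lower, the highest dKD library was below the lower control library. Mier3 was at 1029 to 1203 CPM in control and 294 to 356 CPM in dKD. Polr3k, a subunit of RNA polymerase III, rose from 487 and 451 to 913, 1146, 870.2 and 912 CPM (log2 fold change 1.07 ± 0.20, adjusted p = 0.00868). Cstb (cystatin B) rose from 323 and 312 to 615, 787, 900.5 and 587 CPM (log2 fold change 1.23 ± 0.23, adjusted p = 0.00968) and Spc25, a kinetochore protein, from 129 and 149 to 288, 428, 328 and 402 CPM (log2 fold change 1.41 ± 0.23, adjusted p = 0.00582). The processed pseudogene Gm11517 fell from 3124 and 3664 to 905, 690.3, 383 and 450.3 CPM (log2 fold change -2.45 ± 0.29, adjusted p = 0.00131). The protein-coding 4930522L14Rik, on chromosome 5, fell from 241 and 204 to 26.8, 6.65, 4.12 and 5.77 CPM (log2 fold change -4.33 ± 0.56, adjusted p = 0.00213). By smallest adjusted p the rule also named Cmtm7 (log2 fold change -2.65 ± 0.23, adjusted p = 0.000602) and Arhgdig (log2 fold change -2.47 ± 0.23, adjusted p = 0.000602), which fell. It also named Kcnv2 (log2 fold change 3.26 ± 0.37, adjusted p = 0.00121) and the non-coding B020004C17Rik, at 49.9 and 60.9 CPM in control and 263, 235, 268 and 214 CPM in dKD (log2 fold change 2.18 ± 0.23, adjusted p = 0.000799), which rose. Cmtm7 and Arhgdig each overlap another gene that fell, Gm9888 and Rgs11.

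By gene type, 4.06% of 11201 protein-coding genes fell and 3.73% rose, against 1.90 and 2.86% of 840 pseudogenes and 3.45 and 1.31% of 1683 other non-coding genes. Median exon length was 3488 bases in genes that fell, 3134 in genes that rose and 3616.5 in all tested. Called genes that were neighbours and moved the same way formed 93 runs with 205 of the 993 called genes. In 45 of these runs the annotated spans of neighbouring members overlapped, so that their reads may be shared, and no such count was made for genes in general. A run at chr2:69135800-69586065 held Nostrin, Spc25, Abcb11 and Lrp2, which rose, and one at chr4:155154075-155398112 held Ski, Faap20, Prkcz and Gabrd, which fell. Tdgf1 fell together with its neighbours Lrrc2 (-2.30) and Gm10030 at chr9:110939603-111008029.

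Promoter windows from RefSeq (GRCm38.p6, 250 bases before to 50 after each start) were matched by symbol to 9382 tested genes and searched for letters that the NR5A and KLF families are known to bind. CAAGGTCA or CAAGGCCA on either strand was found in the windows of 16 of 393 genes that fell (4.07%), 7 of 361 that rose (1.94%) and 3.40% of the tested genes with a window, and in 3.92% of all 32851 windows. GGGNGTGG, the KLF word, was found in 27.0% of the genes that fell, 25.5% of those that rose and 25.5% of those tested, and in 17.6% of all windows. The GC box GGGGCGGG, a different word that can share part of its G run with the KLF word, was in 36.1, 31.3 and 33.2%. A match is a description of these letters in this window only. Of the named genes that fell, Eif4e, Khdc3, Zfp644 and Itga1 had an NR5A word, and so did Rps6ka1 of those that rose. The windows of Eif4e (chr3:138525941-138526240, plus strand, words starting 90 and 61 bases before the start), Khdc3 (chr9:73102148-73102447, plus strand, 208 bases before) and Zfp644 (chr5:106696781-106697080, minus strand, 7 bases before) are shown 5′ to 3′ with the word in capitals, since these genes fell and hold the letters of the knocked-down factor's site.
Eif4e: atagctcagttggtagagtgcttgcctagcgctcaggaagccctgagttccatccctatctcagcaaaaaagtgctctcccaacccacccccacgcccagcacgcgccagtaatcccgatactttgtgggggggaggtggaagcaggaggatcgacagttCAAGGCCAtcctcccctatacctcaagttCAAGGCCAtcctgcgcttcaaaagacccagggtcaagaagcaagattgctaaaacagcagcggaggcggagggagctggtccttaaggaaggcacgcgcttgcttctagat
Khdc3: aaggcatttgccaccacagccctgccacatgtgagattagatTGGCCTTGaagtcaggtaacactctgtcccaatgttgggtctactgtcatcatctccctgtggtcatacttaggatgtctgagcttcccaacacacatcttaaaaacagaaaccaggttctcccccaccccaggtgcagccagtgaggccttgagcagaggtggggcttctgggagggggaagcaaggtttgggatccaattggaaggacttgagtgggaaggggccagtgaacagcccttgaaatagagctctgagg
Zfp644: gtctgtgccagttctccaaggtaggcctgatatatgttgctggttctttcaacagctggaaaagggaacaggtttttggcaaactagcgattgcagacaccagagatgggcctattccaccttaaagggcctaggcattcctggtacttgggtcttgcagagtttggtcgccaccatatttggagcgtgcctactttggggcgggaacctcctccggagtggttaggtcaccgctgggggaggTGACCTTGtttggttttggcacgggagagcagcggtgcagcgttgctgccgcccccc
The word of Khdc3 and that of Zfp644 are read on the opposite strand (TGGCCTTG and TGACCTTG). Zfp644, a zinc finger gene, fell and was at 266 and 234 CPM in control and 124, 107, 45.6 and 68.3 CPM in dKD (log2 fold change -1.503 ± 0.32, adjusted p = 0.0154).

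The dKD libraries differed among themselves in some genes. Among 4741 genes with a mean of at least 20 CPM, the largest SD of log2(CPM + 0.5) over the 4 dKD libraries was 1.47, in the oocyte gene Oosp1, against a median of 0.285. Oosp1 was at 12.7, 60.8, 6.36 and 6.83 CPM in dKD replicates 1 to 4, and Oog3, another oocyte gene, was at 19.5, 100.0, 17.9 and 16.6 CPM, so that replicate 2 stood highest in both. Omt2a and Omt2b, further oocyte genes, were at 84.99, 77.9, 26.9 and 21.2 CPM and 118, 243, 48.3 and 35.1 CPM, and here replicates 3 and 4 stood lowest. Slc16a1, a lactate and pyruvate transporter, was at 39.0, 69.0, 14.3 and 15.1 CPM, with replicates 1 and 2 high. Rpp25, a subunit of RNase P, was at 8.95, 12.6, 38.9 and 31.3 CPM, with replicates 3 and 4 high, as in Fbp2 and Adm above. None of these genes other than Fbp2 and Adm was called against control.

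Against Nr5a2 KD (n = 3), the same 4 dKD libraries gave no call in either direction, at 0% of 13017 tested by edgeR. At an unadjusted p below 0.05 there were 447 genes (3.43%), the smallest adjusted p was 0.999, and DESeq2 called 4 genes lower and none higher. Klf5, the transcript that the dKD targets in addition, was at a mean of 139 ± 26.5 CPM (SD) in Nr5a2 KD, 56.0 ± 19.5 CPM in dKD and 111 ± 35.9 CPM in Klf5 KD. The log2 fold change of Klf5 in dKD over Nr5a2 KD was -1.31 ± 0.26 (adjusted p = 0.999), the smallest unadjusted p among the named genes, and all 4 dKD libraries lay below the 3 of Nr5a2 KD. Nr5a2 differed by -0.10 ± 0.22 on the same scale. Tdgf1 was at 2.05 CPM in Nr5a2 KD and 2.16 CPM in dKD (difference 0.07 ± 0.74), and Phf6 at 312 and 341 CPM (0.13 ± 0.46). Mgst3 was lower in dKD, at 16.8 against 41.1 CPM (-1.30 ± 0.30), and Lats2 was at 13.7 against 8.26 CPM (0.73 ± 0.34). A p that misses the threshold does not show that the 2 knockdowns act alike.

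**Figure D5:**
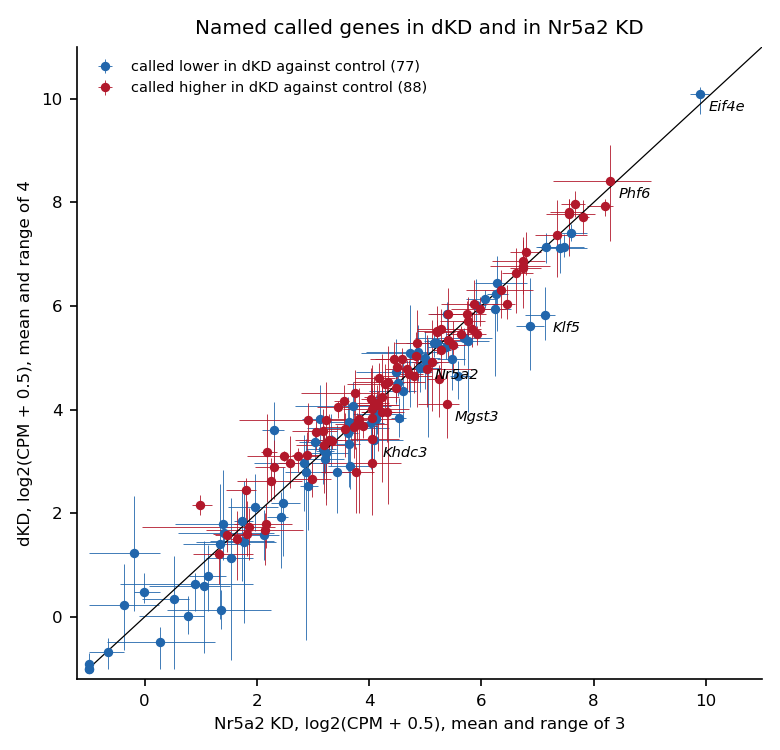
Each point is a named gene called lower (blue, 77) or higher (red, 88) in dKD against control, placed by its mean level in 3 Nr5a2 KD libraries and in 4 dKD libraries as log2(CPM + 0.5), with bars for the lowest and highest library. The points lie along the line of equal levels, and Klf5, at 139 CPM in Nr5a2 KD and 56.0 CPM in dKD, is among those farthest below it.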

How the data were processed

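RNA-seq libraries of pooled 8-cell embryos were made with SMART-seq v4 and Nextera XT, without strand or molecular identifiers, and sequenced on NovaSeq 6000 per the study's methods, while the labels name NovaSeq 6000 or AVITI. Per the submitters' processing notes and the file headers, the authors used Trim Galore 0.6.2, STAR and featureCounts 2.0.1 on GRCm38. As deposited, the values are estimated counts over the exons of each gene, in which a read pair that overlapped several genes was split between them, and were rounded here. Gene counts ran from 6676683 to 7959092 over the 6 libraries, and intervals from counts cover counting error only.

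Genes were filtered with filterByExpr (minimum count 10, total 15) and fitted with edgeR 4.0.16 (R 4.3.3), by glmQLFit and glmQLFTest with TMM factors. Figures used matplotlib 3.10.9. Single values were compared by exact permutation. Floors were 3 counts over a group. Alternatives were DESeq2 1.42.0, other library sizes and filters, the replicate number as a block, the mitochondrial share as covariate, and libraries left out. Leaving out dKD replicates 3 and 4 or 1 and 2, and the block against Nr5a2 KD, were added after seeing the data. The labels do not say that replicates come from separate matings, so p values measure the spread between these samples, which may be technical. Same-numbered Nr5a2 KD and dKD libraries deviated together (correlations 0.152, 0.254 and 0.291), but so did replicate 3 of Nr5a2 KD with replicate 4 of dKD (0.301), and those of control and dKD did not (-0.04 and 0.05).

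The comparison and the 54 gene lists were chosen with earlier results of these data known. Genes were named by a rule: the targets, the genes that the study names, 12 in each direction of largest change, up to 4 per list and direction, and 5 of smallest p. The 12 were called genes at 10 CPM or more, without overlap between the groups and without predicted-gene names. Others are marked where they are called, and uncalled ones were added for their roles with their values seen. Some called genes are not reported here, 1 that the rule names among them.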

Additional observations from a re-analysis of the deposited data

Results flagged for a closer look

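Among the 4 dKD libraries, 15 of 239 values (the genes given in the text and the sums per library) had 1 library far from the other 3, by a test that chance passes in about 1 of 20 groups, and these lay in replicates 1, 2, 3 and 4 in 4, 4, 5 and 2 cases. In replicate 1 Psme1 (6.62 CPM), Khdc3 (17.2 CPM), 4930522L14Rik (26.8 CPM) and Pla2g7 (1.83 CPM) stood above the others, all genes that fell against control. In replicate 2 the high values were Oog3 (99.98 CPM), Oosp1 (60.8 CPM), Polr3k (1146 CPM) and Rdh9 (4.24 CPM). In replicate 3 Eif2s3y (80.6 CPM), Nostrin (17.7 CPM) and Map2k6 (0.118 CPM, its 1 count) were high and Ocln (9.19 CPM) and Cdc7 (23.5 CPM) low. In replicate 4 Nlrp6 (11.4 CPM) was high and Rasgrf1 (1.88 CPM) low.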

How the results depend on the processing

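Of the genes called against control and fitted in an alternative, every one kept the sign of its log2 fold change in all 19 refits. The number called moved by over 1.5 times in several. With ERCC library sizes 178 genes fell and 2838 rose, and the uncalled Tead4, Gata4 and Gata6 turned to log2 fold changes of 0.0066, 0.30 and 0.55. With total counts 418 fell and 650 rose, so that 39.1% of calls were lower against 53.3% in the comparison reported. DESeq2 called 707 higher, and no filter on low counts gave 795 higher. Leaving out 1 library gave 91 to 674 lower and 41 to 621 higher, with both lowest values without control replicate 1, and 104 lower and 66 higher without control replicate 2, where a lone control library is assumed to vary like the others. Without dKD replicate 4, 274 rose. Without dKD replicates 3 and 4, 289 rose, and without dKD replicates 1 and 2, 1259 fell and 1141 rose, and the cause was not tested.

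In a fit of the 12 libraries with a replicate block, 357 genes fell and 186 rose, although same-numbered control and dKD libraries were not shown to be paired. Against Nr5a2 KD, where the correlations of same-numbered libraries were all positive, though one of different numbers was higher, the block gave 0 lower and 0 higher. There DESeq2 called 4 lower, the mitochondrial share as covariate 1 lower, and leaving out 1 library 0 to 3 lower, and none of these called a gene higher.

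Of the 195 called genes given in the text or by the rule, 38 passed in every alternative that could be fitted, among them Nr5a2, Klf5, Tdgf1, Khdc3, Mpc1, Fdx1, Six4, Plekhb2, Phf6, Gsc, Postn and Nlrp6. In all 11 passed in fewer than 10 of up to 19, with Calr, Jun, Eif2ak4, Fabp5, Atg4b, Kmt2c, Ocln, Trp53inp1, Pla2g7 and Itgb3 among them. With 2 control libraries the exact test of a single value cannot go below p = 0.0667, and genes with few counts in control carry wide counting intervals.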
